A study of Oryza sativa with 8 samples.

Results

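The transcripts of 8 phosphate transporter genes of rice were compared between roots that had received little ammonium and roots that had received more: PT1, PT2, PT3, PT4, PT6, PT8 and PT11 of the PHT1 family, and PHO1;2. The members were all non-control probes whose name begins with one of these 8 loci, which gave 27 probes of 42477 on the array and 8 loci of 29689. Whole roots of the japonica cultivar Koshihikari were sampled after 10 days with ammonium chloride at 0.005 mM (4 biological replicates) or at 1 mM (4 biological replicates), and each replicate was hybridised to 1 one-colour (Cy3) array. The labels name no other treatment, and they give neither the phosphate supply of the medium nor the number of plants per replicate.

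Plants take up phosphorus as inorganic phosphate. Proteins of the PHT1 family are phosphate and proton co-transporters that move it across the plasma membrane into root cells, whereas PHO1 proteins release it towards the xylem, which carries it to the shoot. Transcription factors of the PHR type activate many of these genes when phosphate is short, and SPX proteins, which sense the phosphate status, hold the PHR factors back.

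Levels below are log2 signals relative to the 75th percentile of the same array, so a level of 0 equals that percentile. Changes are 1 mM minus 0.005 mM on the log2 scale, given ± SE from a limma fit across all probes detected well above background by 4 or more of the 8 arrays, with p-values adjusted over these 35950 probes by the Benjamini-Hochberg method and a threshold of 0.05. Levels of different probes are not comparable, because each probe has its own hybridisation efficiency. In whole roots, fewer cells that express a gene and less RNA per cell cannot be told apart.

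All 4 arrays at 0.005 mM lay on 1 slide and all 4 at 1 mM on another, so an effect of the slide and one of ammonium cannot be told apart. Between 81.4% and 85.1% of non-control spots per array were well above background and none was saturated. The tissue label was checked with 2 lists. Both root markers, the silicon transporter genes Lsi1 and Lsi2, were well above background on all 8 arrays and changed by -0.77 ± 0.07 and -0.99 ± 0.07 (limma adjusted p = 2.46e-05 and 4.16e-06). All 23 probes of 5 loci listed as green-tissue markers were also well above background on all 8 arrays, and 21 of them were higher at 1 mM (median change 1.1), where 33.8% of all tested probes were higher. Their summed linear signal, in multiples of the 75th percentile, ranged from 165 to 196 at 0.005 mM and from 431 to 521 at 1 mM. Whether this difference in markers has a part in the changes of the phosphate transporters was not tested.

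Of the 27 probes, 21 passed the background filter: 3 of PT1, 8 of PT2, 1 of PT3, 4 of PT4, 2 of PT6, 2 of PT8, none of PT11 and 1 of PHO1;2. In the fit, 13 of these 21 probes rose, where 33.8% of all tested probes rose, and 6 fell, where 43.1% of all tested probes fell. The groups did not overlap for 19 of the 21, against 72.4% of all tested probes. In either direction 76.9% of all probes were called, so a call by itself sets the transporters apart little. Called changes of at least 2-fold upwards were found for 12 of the 21 probes and for 10.2% of all probes, and 1 of the 21, PT6 probe AK119787, fell at least 2-fold, against 7.92% of all probes. This probe was well above background on only 1 of 4 arrays at 1 mM. With normexp background correction it changed by -0.34, so none of the 21 then fell 2-fold. These shares count PT2 through 7 of its probes, which share a target gene and are not independent.

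**Figure D1:**
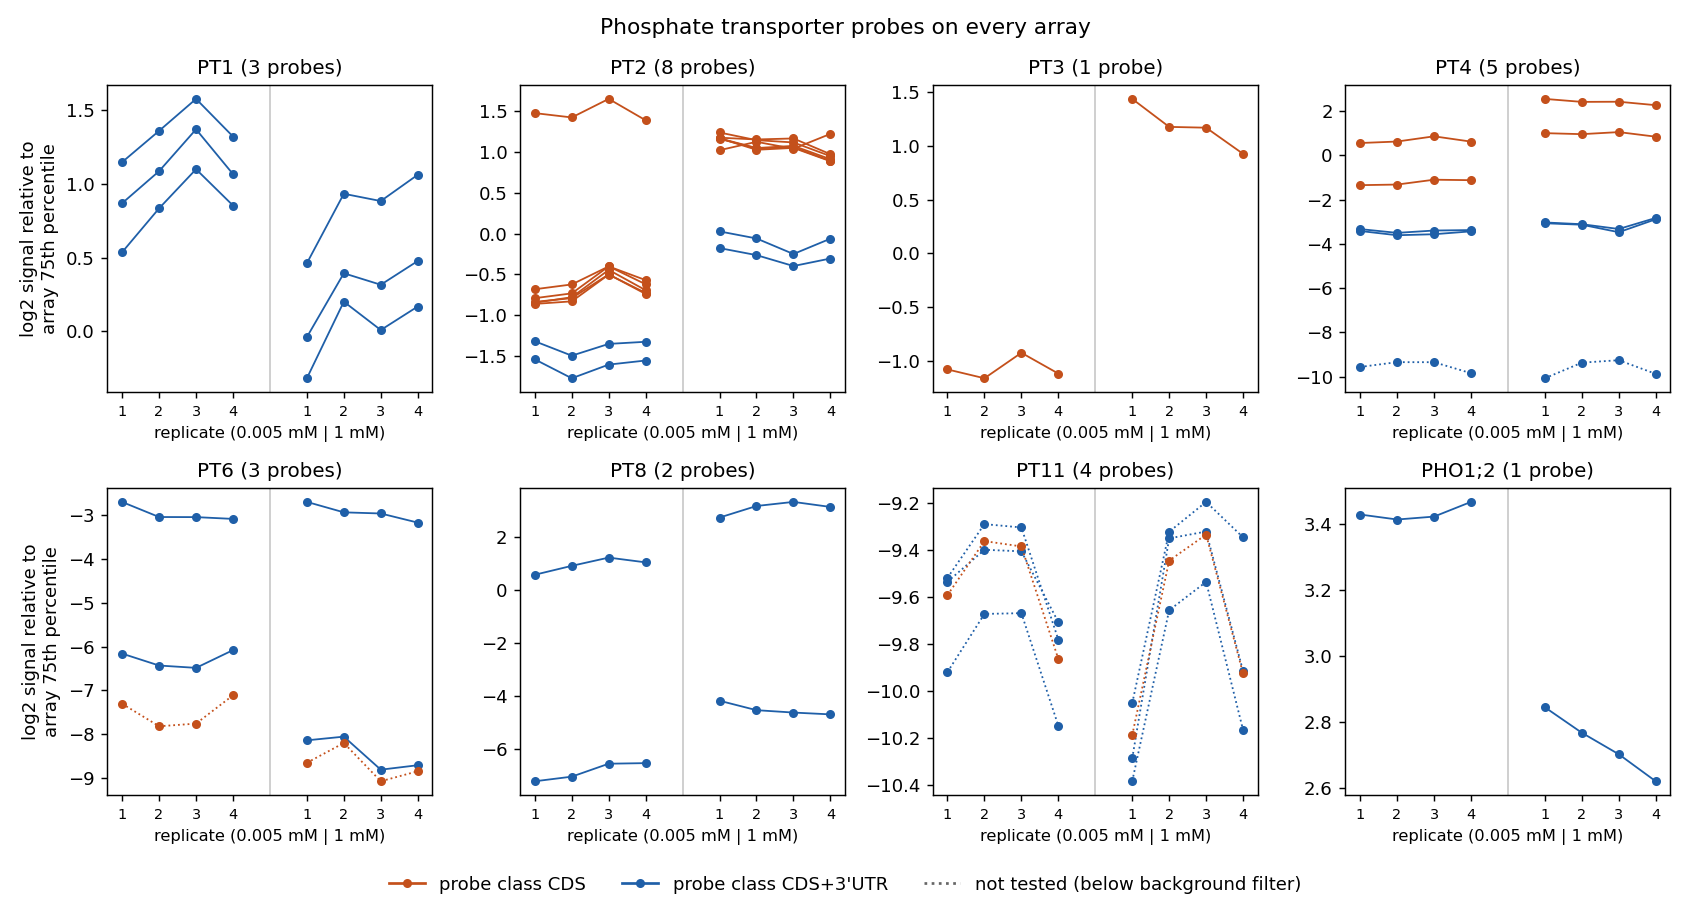
Log2 signal relative to the array's 75th percentile (y axis) for each of the 27 probes on each of the 8 arrays (x axis, replicates 1 to 4 at 0.005 mM on the left and at 1 mM on the right of each panel). A line joins the values of 1 probe and carries no order; colours give the design class in the probe name, and dotted lines mark the 6 untested probes. PT8 and PT3 stand higher at 1 mM, PT1 and PHO1;2 lower, and the probes of PT2, PT4 and PT6 do not all move alike.

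PT8, a high-affinity transporter with a main part in root phosphate uptake, rose about 4- to 5-fold by both of its probes. Probe AK101170, assigned on the array to the first annotated transcript of Os10g0444700, read 0.57, 0.90, 1.21 and 1.03 in replicates 1 to 4 at 0.005 mM and 2.73, 3.16, 3.32 and 3.13 at 1 mM. The lowest array at 1 mM lay far above the highest at 0.005 mM. The change was 2.15 ± 0.16, a 4.45-fold rise (limma adjusted p = 5.55e-06). Probe AK069054, assigned to the second transcript, read -7.23, -7.06, -6.57 and -6.55 at 0.005 mM and -4.19, -4.55, -4.64 and -4.71 at 1 mM. It was dim but well above background on all 8 arrays, the groups again did not overlap, and it rose by 2.33 ± 0.18 (limma adjusted p = 6.56e-06). The change of this dim probe was 1.37 with normexp background correction and 1.23 with normexp and quantile normalization, still past the threshold in both.

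PT3 (Os10g0444600), which lies next to PT8 on chromosome 10 with no gene between them in the RefSeq gene table, rose as well. Its only probe, AF239619, read -1.08, -1.16, -0.93 and -1.12 at 0.005 mM and 1.44, 1.18, 1.17 and 0.93 at 1 mM. The groups did not overlap. The change was 2.25 ± 0.10, a 4.76-fold rise (limma adjusted p = 3.86e-07).

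PT1 (Os03g0150600), a transporter known to be expressed in rice whatever the phosphate supply, fell by all 3 of its probes. Probe AK065075 read 0.54, 0.83, 1.1 and 0.85 at 0.005 mM and -0.32, 0.20, 0.01 and 0.17 at 1 mM, and fell by 0.82 on the log2 scale (SE 0.15, limma adjusted p = 0.000972), a 1.76-fold decrease. Probe AK071903, the brightest of the 3, read 1.15, 1.36, 1.58 and 1.32 at 0.005 mM and 0.46, 0.93, 0.88 and 1.06 at 1 mM, and fell by 0.52 on the log2 scale (SE 0.14, limma adjusted p = 0.00881). Replicate 1 gave the lowest value of its group for each PT1 probe at both concentrations, yet the groups did not overlap for any of them. Replicate numbers match array positions on both slides, and whether position has a part was not tested. The third probe, AK066911, gave -0.81 ± 0.14 and the same ordering of groups.

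PT2 (Os03g0150800), a low-affinity transporter linked in rice to moving phosphate from root to shoot, lies near PT1 on chromosome 3 with 1 gene between them in the RefSeq gene table. Of its 8 probes 7 rose and 1 fell. The probe that fell was the brightest, AF536959. It read 1.48, 1.43, 1.65 and 1.39 at 0.005 mM and 1.02, 1.13, 1.04 and 1.22 at 1 mM, a change of -0.38 ± 0.07 with groups that did not overlap (limma adjusted p = 0.00112). At the other end, probe AF259979 read -0.86, -0.83, -0.50 and -0.73 at 0.005 mM and 1.17, 1.05, 1.08 and 0.91 at 1 mM, a change of 1.78 ± 0.09 or 3.44-fold (limma adjusted p = 5.43e-07).

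The names of the probes carry a design class, which reads CDS or CDS+3′UTR for all 27 probes, while other classes also occur on the array. The classes were read as coding sequence alone and as coding sequence with 3′ untranslated sequence. This reading was not checked against probe sequences. Apart from AF536959, the 5 PT2 probes of class CDS rose by 1.69 to 1.78, and their values ran from -0.86 to -0.40 at 0.005 mM and from 0.89 to 1.24 at 1 mM. The 2 PT2 probes of class CDS+3′UTR, AK108907 and AY332471, rose by 1.29 ± 0.07 and 1.33 ± 0.07, with values from -1.78 to -1.32 at 0.005 mM and from -0.40 to 0.03 at 1 mM. Both classes thus hold probes that rose, and the probe that fell shares its class with 5 that rose. The mean of all 8 probes gave a rise of 1.37, opposite in direction to the brightest probe alone.

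PT4 (Os04g0186400), a high-affinity transporter of roots, has 5 probes, of which 4 were tested and 3 rose. Its 2 probes of class CDS rose most. Probe AF493789 read -1.34, -1.32, -1.10 and -1.12 at 0.005 mM and 1.01, 0.96, 1.05 and 0.85 at 1 mM, a change of 2.19 ± 0.07 or 4.55-fold (limma adjusted p = 8.28e-08). Probe AF271893, the brightest, read 0.56, 0.63, 0.86 and 0.62 at 0.005 mM and 2.55, 2.42, 2.42 and 2.27 at 1 mM, a change of 1.75 ± 0.08 (limma adjusted p = 3.91e-07). For both, every array at 1 mM stood above every array at 0.005 mM.

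The PT4 probes of class CDS+3′UTR moved much less. Probe AK063990 read -3.33, -3.50, -3.39 and -3.37 at 0.005 mM and -3.07, -3.13, -3.47 and -2.89 at 1 mM. Its groups overlapped through replicate 3 at 1 mM, and its difference of 0.26 (95% interval -0.0017 to 0.52) did not pass (limma adjusted p = 0.0653). Without that array the difference was 0.37 and passed. With any other single array left out it did not pass (limma adjusted p = 0.0814 to 0.151). Probe AK101380 rose by 0.43 ± 0.10 (limma adjusted p = 0.00467), a call that was lost at 0.16 without scaling between arrays and at 0.051 with spike-in scaling. The fifth probe, AF416722, did not reach well above background on a single array and was not tested. The array assigns it to no annotated transcript of this locus. Over the 304 loci of the array with tested probes of both classes, the mean change of the CDS probes minus that of the CDS+3′UTR probes had a median of -0.018, with 10% of loci below -0.18 and 10% above 0.21. For PT4 this difference was 1.62, and none of the 304 loci had a larger one. For PT2 it was 0.076, and 81 loci had a larger one. That value rests on AF536959: without this probe, a choice made after seeing its value, the difference for PT2 was 0.43, and 13 loci had a larger one.

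PT6 (Os08g0564000), a high-affinity transporter for uptake and movement of phosphate through the plant, gave a probe that fell, a dimmer one that was lower, and a brighter one that did not pass. Probe AF335588 read -2.70, -3.05, -3.05 and -3.09 at 0.005 mM and -2.70, -2.94, -2.97 and -3.17 at 1 mM. The groups overlapped, and the difference was 0.027 with a 95% interval from -0.24 to 0.30 (limma adjusted p = 0.843). Probe AK119787 read -6.16, -6.43, -6.48 and -6.08 at 0.005 mM and -8.14, -8.05, -8.81 and -8.70 at 1 mM, where it was well above background on 1 of 4 arrays. Its groups did not overlap and it fell by 2.14 on the log2 scale (SE 0.19, limma adjusted p = 1.40e-05). It passed the filter through the arrays at 0.005 mM, so the ordering and p-value rest largely on undetected signals at 1 mM. Since 3 of the 4 arrays at 1 mM did not detect it well above background, the fall was also computed with a floor. Each of those 4 arrays was set to the higher of the probe's signal and the lowest detected signal. This gave 4.04-fold on the processed signal. It is no strict bound, because undetected signals above that floor enter it. The size of this change depended on the background correction: it was -0.34 with normexp and -0.54 with normexp and quantile normalization. The third probe, AY100468, was well above background on 2 arrays at 0.005 mM and on none at 1 mM, so it was not tested. Its means were -7.50 ± 0.34 (SD, n = 4) at 0.005 mM and -8.69 ± 0.37 at 1 mM. Each 1 mM array was then set to the higher of the probe's signal and the lowest signal well above background there. This gave a 2.0-fold lower signal at 1 mM. It is no strict bound, because undetected signals enter it at both concentrations.

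PT11 (Os01g0657100), known in rice as the transporter that takes up phosphate delivered by arbuscular mycorrhizal fungi, was not well above background with any of its 4 probes on any of the 8 arrays. Their values lay between -10.15 and -9.29 at 0.005 mM and between -10.39 and -9.20 at 1 mM, and each was below the lowest signal well above background on its own array. That lowest signal was -8.89 to -8.30 across the arrays at 0.005 mM and -9.26 to -8.16 across those at 1 mM. The array assigns PT11 probes AF280998 and AF259980 to no annotated transcript of this locus. No fold is given for PT11.

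PHO1;2 (Os02g0809800), the PHO1 protein with the main part in loading phosphate into the rice xylem, fell. Its only probe, AK100323, read 3.43, 3.41, 3.42 and 3.47 at 0.005 mM and 2.85, 2.77, 2.70 and 2.62 at 1 mM. The replicates at 0.005 mM lay close together (3.43 ± 0.02, SD, n = 4) and all 4 arrays at 1 mM were below them (2.73 ± 0.10). The change was -0.70 ± 0.05, a 1.62-fold decrease (limma adjusted p = 4.58e-06).

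**Figure D2:**
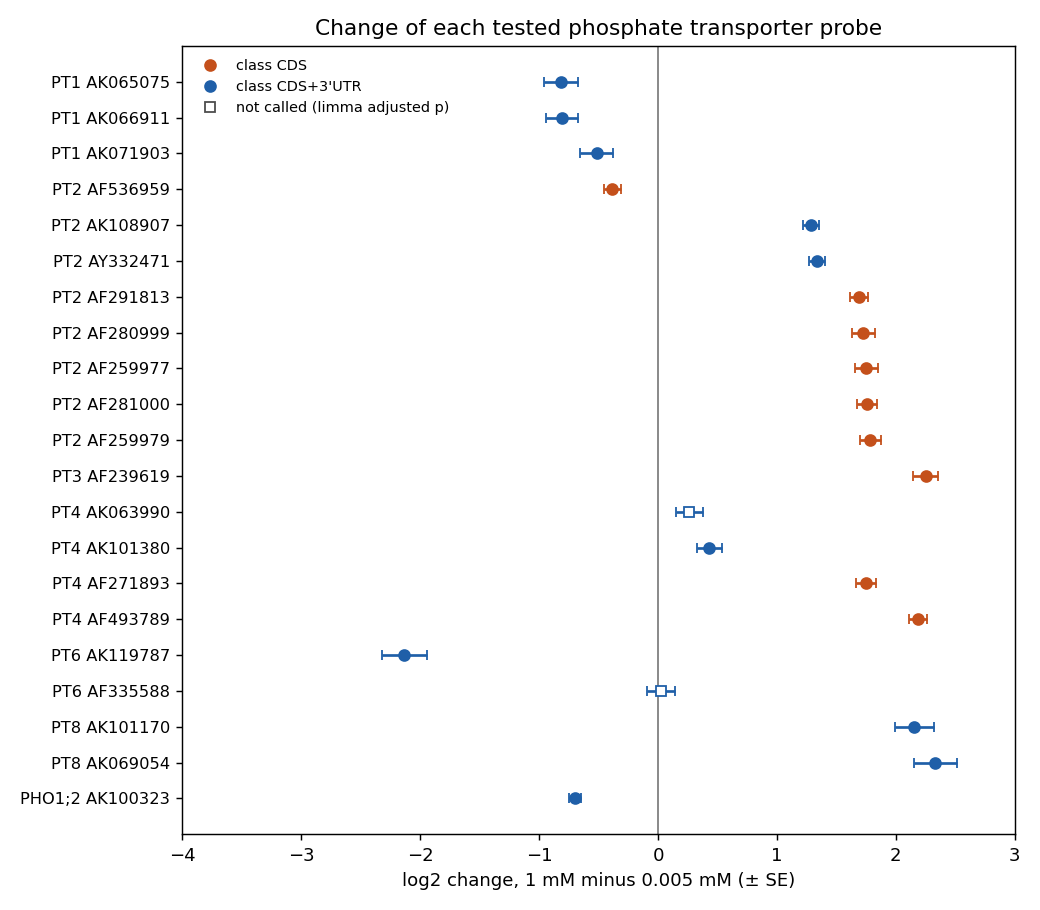
Log2 change, 1 mM minus 0.005 mM, with its SE from limma (x axis) for the 21 tested probes (y axis); colours give the design class and open squares the 2 probes that did not pass. PT8, PT3, 7 PT2 probes and 2 PT4 probes lie between 1.29 and 2.33, while PT1, PHO1;2 and 1 PT2 probe lie between -0.82 and -0.38 and 1 PT6 probe at -2.14.

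Probes of 1 gene thus gave different changes, and the difference itself was tested within each array, where scaling cancels. For the 5 loci with several tested probes, the brightest probe minus the mean of the others was compared between groups with a two-sided exact permutation test (4 against 4 arrays), adjusted over the 5 loci. The smallest p this design allows is 0.0286. For PT2 the gap was 2.46, 2.43, 2.40 and 2.28 at 0.005 mM and 0.20, 0.40, 0.35 and 0.62 at 1 mM, so the groups were far apart. It changed by -2.0 (exact permutation p = 0.0286, adjusted p = 0.0357).

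The gap of PT6 changed by 2.16, that of PT4 by 0.79 and that of PT1 by 0.30, each with exact permutation p = 0.0286 and adjusted p = 0.0357. The other PT6 probe, AK119787, was well above background on only 1 of 4 arrays at 1 mM. The PT6 gap at 1 mM thus rests largely on undetected signals of that probe. The PT6 gap changed by 0.42 with normexp (exact permutation test, adjusted p = 0.0857). For PT8 the gap went from 7.78 ± 0.16 (SD, n = 4) to 7.61 ± 0.47, a difference of -0.18 that did not pass (exact permutation p = 0.686, adjusted p = 0.686), and the groups overlapped. With normexp the PT8 gap changed by 0.76 (exact permutation test, adjusted p = 0.0357).

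Such disagreement was uncommon on the array. Of 7016 loci with at least 2 tested probes, 2.01% had probes called in opposite directions, as PT2 did. The share was 5.64% of the 337 loci with at least 5 tested probes. The median spread between the highest and lowest change within a locus was 0.085 over the 7016 loci, and 0.19 over the 337 loci with at least 5 tested probes. The spread was 2.17 for PT2, 2.16 for PT6 and 1.92 for PT4, wider than in 99.6%, 99.6% and 99.4% of the 7016 loci. Among the 337 loci with at least 5 tested probes, that of PT2 was wider than in 97.6%. The spread of PT4, with 4 tested probes, was not ranked among loci with a like number of probes. The PT6 spread rests on the dim probe AK119787: with normexp it was 0.42, wider than in 90.5%, while those of PT2 and PT4 were 2.09 and 1.90. It was 0.30 for PT1 and 0.18 for PT8, wider than in 84.1% and 72.2%, and for PT8 it was 0.76 with normexp, wider than in 96.8%.

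Some probes of different loci tracked each other more closely than probes of the same locus. The gap between PT2 probe AF281000 and PT4 probe AF271893 stayed between -1.42 and -1.36 on all 8 arrays, a range of 0.056. This was the smallest range of any pair among the 21 tested probes, within or between loci. For all 5 rising PT2 probes of class CDS set against PT4 probe AF271893 the range was 0.056 to 0.18, and among these 5 PT2 probes themselves it was 0.060 to 0.20. They were the only 5 of 171 pairs from different loci with a range under 0.2, where the median was 2.15. Against the other PT4 probe of class CDS, AF493789, the same 5 PT2 probes had ranges of 0.57 to 0.65. PHT1 genes are similar in coding sequence, probe sequences were not analysed here, and whether probes of 1 locus also bind transcripts of another was not tested.

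Over all probes of other loci, the probe most like a member was sought by Pearson's r over the 8 arrays. The brightest PT4 probe matched PT2 probe AF281000 best (r = 0.9998). The PT3 probe was closest to a probe of Os06g0704600 (r = 0.9992), which rose by 0.72. The PHO1;2 probe was closest to a probe of Os02g0704900 (r = 0.9990), which changed by -0.92, and the brightest PT1 probe to a probe of Os07g0148800 (r = 0.9911), which changed by -0.29. All these values share 8 arrays and 1 difference between groups: for PT3 and PHO1;2, 17.1% and 21.5% of the probes compared had r above 0.95.

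Scaling between arrays shifted all probes together. The median change of all tested probes was -0.07 with the 75th percentile, -0.34 without scaling and -0.45 with spike-in scaling, which sets the arrays to 7 added control probes. Without scaling 20.5% of all probes rose and 58.5% fell, and with spike-in scaling these shares were 16.9% and 63.9%. They were 35.0% and 41.6% with median scaling, 31.6% and 45.5% with quantile normalization, 37.2% and 38.8% with normexp, and 31.5% and 45.3% with normexp and quantile normalization. Of the 21 transporter probes, 12 rose and 6 fell without scaling, and 12 rose and 7 fell with spike-in scaling. With quantile normalization, normexp or both, 13 rose and 6 fell. Both without scaling and with spike-in scaling, PT8, PT3, the 7 rising PT2 probes and the PT4 probes of class CDS were still called higher. Their changes were 0.91 to 1.95 with spike-in scaling. PT1, PHO1;2, PT2 probe AF536959 and PT6 probe AK119787 were called lower in both of these settings. With spike-in scaling the changes were -1.20 to -0.90 for PT1 and -1.08 for PHO1;2. PT6 probe AF335588 was called lower with spike-in scaling, at -0.35 (limma adjusted p = 0.0428), and PT4 probe AK063990 went to -0.0087 without scaling and -0.12 with spike-in scaling, not called in either.

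**Figure D3:**
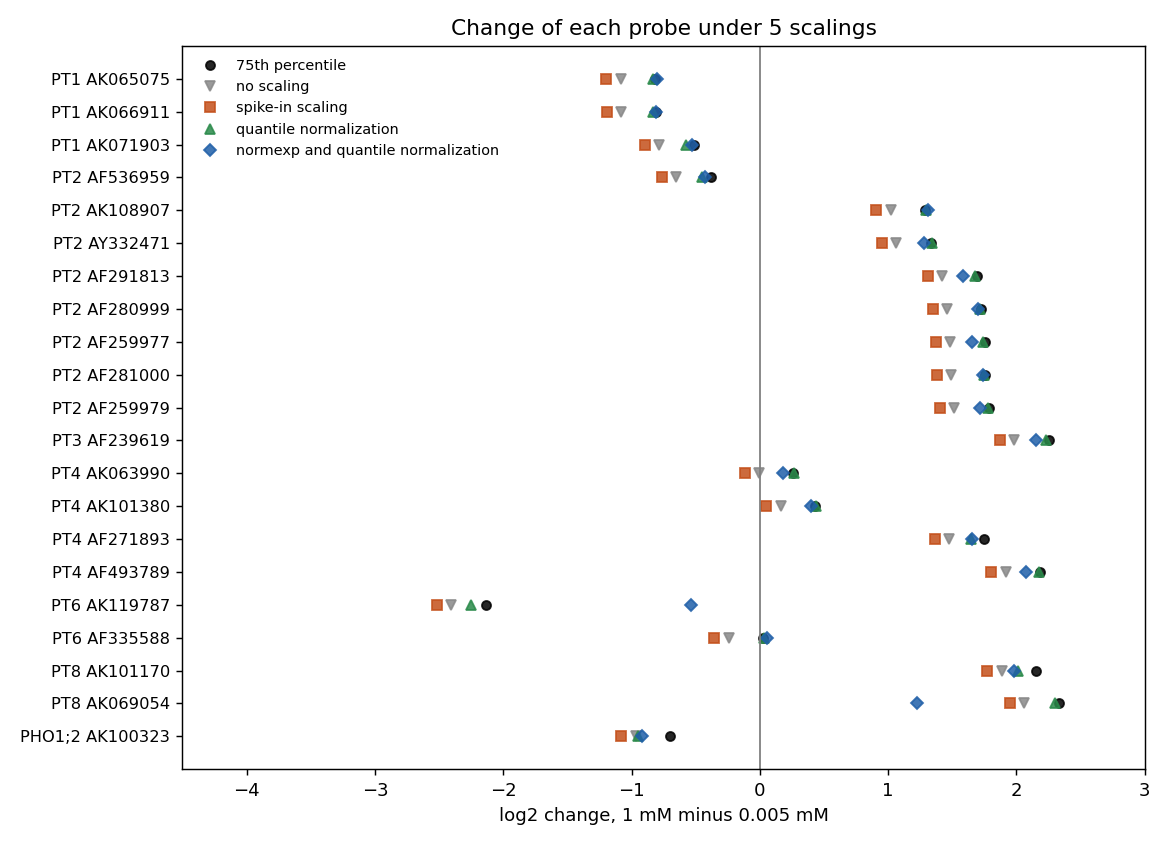
Log2 change, 1 mM minus 0.005 mM (x axis), of the 21 tested probes (y axis) under 5 ways of scaling the arrays, one symbol each. Spike-in scaling and no scaling move all probes to the left; 2 dim probes, PT6 AK119787 and PT8 AK069054, move towards 0 with normexp and quantile normalization, to -0.54 and 1.23.

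The authors' deposited table lists 18 of the 27 probes, all of them called here, and all 18 have the same direction in it. Its log2 ratios were below the changes given here by 0.11 to 0.15 in every case, for example 2.01 for PT8 probe AK101170 and -0.83 for PHO1;2 in the authors' deposited table. Of the probes called here, PT4 probe AK101380 alone is missing from the authors' deposited table.

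Of 25 other loci of phosphate transport, sensing and starvation response, 17 had a tested probe. Of their 27 tested probes 8 rose, 15 fell and 4 did not pass, with a median change of -0.18 against -0.07 for all probes. Of all tested probes 33.8% rose and 43.1% fell. With spike-in scaling or without scaling 5 of the 27 rose and 18 fell. Of all tested probes 16.9% rose and 63.9% fell with spike-in scaling, and 20.5% rose and 58.5% fell without scaling. A symbol on the matching chromosome was found in the RefSeq gene table for 15 of the 25 loci, and only these are named. Among the 6 other PHT1 loci, 1 was tested: PT5 fell by 2.16 on the log2 scale (SE 0.26, limma adjusted p = 9.19e-05), but its probe was well above background on 1 of 4 arrays at 1 mM. The p-value for PT5 thus rests largely on undetected signals at 1 mM. Computed as for PT6 probe AK119787, the fall was 3.91-fold, which is likewise no strict bound.

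PHO1;1, a relative of PHO1;2, moved in the opposite direction to it. Both of its probes rose, by 1.59 ± 0.09 and 1.52 ± 0.11 (limma adjusted p = 1.23e-06 and 3.55e-06), from dim levels of -5.60 ± 0.08 and -5.44 ± 0.13 (SD, n = 4). The difference between the genes was not tested. PHO1;3 had no tested probe.

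Of 10 tested probes of the SPX-domain list, which covers 8 loci, 2 rose, 5 fell and 3 did not pass, and 1 rose and 7 fell with spike-in scaling or without scaling. Changes on this list ran from -2.32 to 0.97, and the largest fall belonged to a locus not named here. SPX6 fell by 1.63 on the log2 scale (SE 0.10, limma adjusted p = 1.95e-06) and SPX2 by 1.14 (SE 0.07, limma adjusted p = 2.23e-06), while SPX3 rose by 0.97 ± 0.18 (limma adjusted p = 0.00125). Of 9 tested probes of regulators, 2 rose, 6 fell and 1 did not pass, and 2 rose and 7 fell under both of those settings. Changes of the regulators ran from -1.50 to 1.35, and the largest in both directions belonged to loci not named here. All 4 probes of PHR2, the transcription factor that activates phosphate starvation genes in rice, fell, the largest by 0.76 on the log2 scale (SE 0.08, limma adjusted p = 5.50e-05) and the smallest by 0.44. Of 5 tested probes listed as starvation markers, 2 rose and 3 fell, all within -0.23 to 0.21. The 2 that rose were not called with spike-in scaling or without scaling, where their values were below 0.

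**Figure D4:**
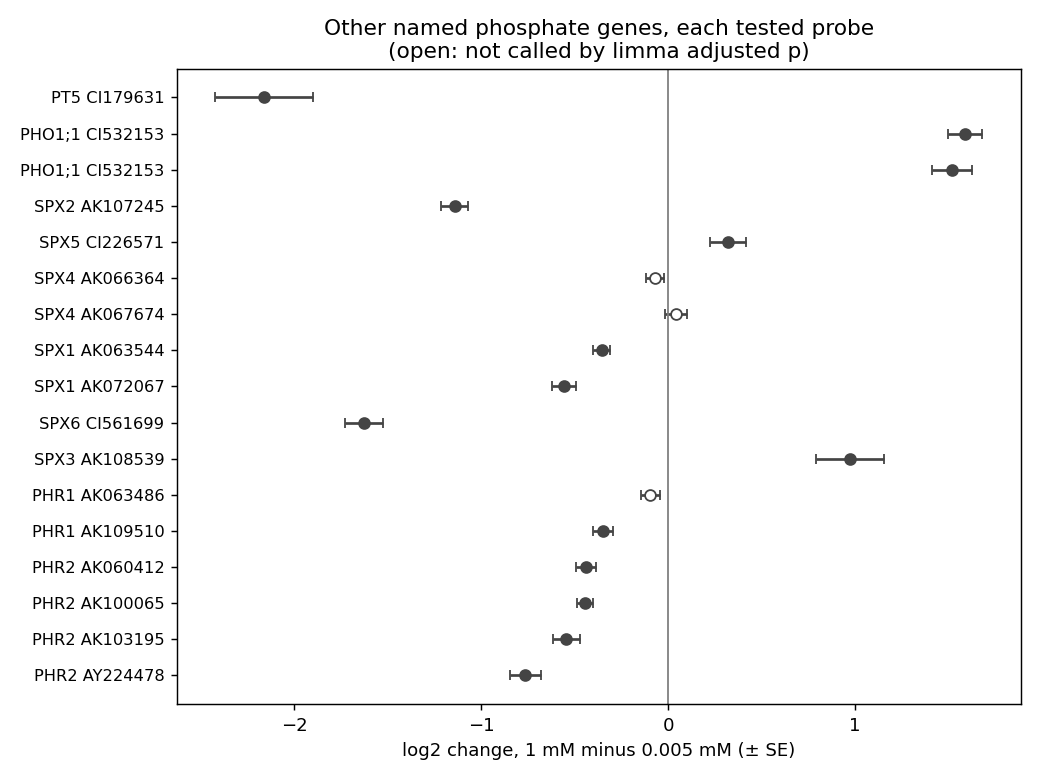
Log2 change, 1 mM minus 0.005 mM, with its SE from limma (x axis) for the tested probes of the other phosphate genes with a symbol in the gene table (y axis); open circles did not pass. PHO1;1 and SPX3 lie furthest to the right, at 0.97 to 1.59, and PT5, SPX6, SPX2 and PHR2 to the left, at -2.16 to -0.44. SPX1, at -0.55 and -0.36, and PHR1 probe AK109510, at -0.35, were also called lower, and SPX5, at 0.32, higher.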

How the data were processed

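Per the file headers, the deposited signals are linear spot intensities, corrected for background with Agilent Feature Extraction 10.10.1.1. The authors' deposited table adds, per feature, a log2 ratio with its p-value and q-value. Its 8 columns of signal per array do not carry the sample titles and were left out. The authors' test and scaling are not given in the sources used here.

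Log2 of the processed signal minus each array's 75th percentile over non-control spots was taken, without control spots or outlier flags. Both concentrations were then fitted with limma 3.58.1 (R 4.3.3; lmFit and eBayes), two-sided, every probe a unit. The functions were tested on simulated data. Replicate numbers were not taken as pairs, since same-numbered arrays correlated in their deviations at 0.30, -0.01, 0.11 and 0.06.

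For normexp (offset 50) the median spot signal was used. Values were named by the rule that, per locus, the brightest, highest and lowest tested probes are shown. For the other lists the text takes names from the up to 4 largest called changes, and only where the symbol was found in the RefSeq gene table. Members and lists were chosen with earlier results of these data known. The number of arrays limits the precision.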

Additional observations from a re-analysis of the deposited data

Results flagged for a closer look

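Among 42 groups of 4 array values, 2 had 1 array standing apart, where the gap to the nearest other array over the range of the group exceeds Dixon's 95% critical value. Chance gives about 1 in 20. PT2 probe AF291813 at 1 mM read 0.97 in replicate 4, and the other arrays of the group read 1.15 to 1.18, which gives a ratio of 0.893. PT6 probe AF335588 at 0.005 mM read -2.70 in replicate 1, and the other arrays read -3.09 to -3.05, a ratio of 0.889.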

How the results depend on the processing

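Of the 21 tested probes, 17 had the same direction and the same call in all alternatives in which they were tested. With 1 probe per locus, the brightest, 3 loci were higher and 3 lower, and with the mean of probes 4 were higher and 3 lower, against 13 and 6 probes; fewer units are counted there by construction. With the mean of probes PT2 turned from -0.38 to 1.37 and PT6 from 0.027 to -1.05. PT6 probe AF335588 also turned to -0.35 with spike-in scaling. The gap between probes changed by 0.42 for PT6 and turned to 0.76 for PT8 with normexp; the cause was not tested. Leaving out 1 array gave 13 to 14 probes higher and 6 to 6 lower. The gap changes were then -2.08 to -1.94 for PT2, 0.28 to 0.32 for PT1 and 0.73 to 0.88 for PT4. They were 2.04 to 2.28 for PT6 and -0.29 to 0.052 for PT8. With 7 arrays the exact permutation test of the gap gave adjusted p = 0.0357 for PT1, PT2, PT4 and PT6 whichever array was left out. That outcome was fixed, because their groups were fully separated on all 8 arrays, so it adds no support. For PT8 the same test gave adjusted p = 0.371 to 0.914. Other scalings of the list counts, folds set by the lowest detected signal and spreads with normexp were chosen after seeing the data. So were the PT2 class difference without AF536959 and the gap tests with 7 arrays. PT4 probe AK063990 passed at 0.28 with median scaling and with arrayWeights. The replicate block gave 13 higher and 6 lower and changed no call. A slide block was not run, because no slide holds both groups. Signals near background limit PT6, PT11 and the dim PT8 probe.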
